A study of Mus musculus with 15 samples.

Results

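Interleukins and their receptors were examined in tumor-associated macrophages (TAMs) through 68 genes, taken as every gene whose symbol begins with Il and a number, except 15 that were left out (Il1b, Il18, Il4, Il4ra, Il13ra1, Il13ra2, Il2rg, Il10, Il10ra, Il10rb, Il12a, Il12b, Il12rb1, Il12rb2 and Il23a). The table of expression held 83 such symbols among 55335 genes. TAMs were sorted by CD11b and F4/80 from orthotopic hepatocellular carcinoma (HCC) in the liver of C57BL/6 mice, grown from injected Hepa1-6 cells, a mouse hepatoma line, and the labels list 5 RNA-seq samples from each of 3 groups, more than the study's own legend counts for this experiment, and all were used. Control TAMs came from tumors of control Hepa1-6 cells, miR-144 TAMs from tumors of cells that overexpressed miR-144, and miR-451a TAMs from tumors of cells that overexpressed miR-451a. The tumor cells of all groups carried a lentiviral luciferase gene, the miRNAs were introduced into the tumor cells and not into the macrophages, and the labels describe every sample as untreated and do not give the age of the mice. The comparisons addressed which interleukin and receptor genes differed in macrophages when the tumor cells around them made more of either miRNA. The labels do not say that the samples of a group came from separate mice, so p-values measure only the spread between these samples, which may be technical.

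Interleukins are secreted proteins by which leukocytes and tissue cells signal to one another, and most of their receptors are built from a chain that binds 1 ligand and a chain shared by several. The receptors of the IL-6 group share gp130 and signal through JAK kinases and STAT3, those of the IL-2 group share the common gamma chain and signal through STAT5 or STAT3, and those of the IL-3 group share the common beta chain. Receptors of the IL-1 and IL-17 groups act instead through adaptor proteins that lead to NF-kB. Macrophages carry many of these receptors and release some of the ligands, and ligand-binding chains, shared chains and ligands are described apart below.

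Expression was given as FPKM, a number of fragments scaled to transcript length and to the fragments mapped in the sample, and the steps between low values implied 15.4 to 30.4 M fragments per sample. The macrophage markers were high in all samples, with Adgre1, the gene of F4/80, at means of 137, 361 and 354 FPKM in control, miR-144 and miR-451a TAMs, and Csf1r at 401, 691 and 693 FPKM, while Cd68 went the other way at 1440, 919 and 910 FPKM. Among 8 T cell markers both Cd3e and Cd3g stood at 0 throughout, while Cd4, which macrophages can also express, averaged 1.32, 6.86 and 7.16 FPKM, and the 8 summed to 1.25 to 1.63, 5.6 to 8.88 and 5.32 to 9.51 FPKM. The 4 B cell markers summed to 0.138 to 0.375, 1.11 to 1.45 and 1.17 to 1.73 FPKM. Of 5 NK cell markers, Ncr1, Gzma and Eomes were listed at 0 in all samples, and the 5 summed to 0.192 to 0.416, 0.0477 to 0.168 and 0.0323 to 0.137 FPKM, almost all from Klrb1c. The 5 mast cell or basophil markers summed to 0.156 to 0.464, 0.511 to 1.71 and 0.783 to 1.25 FPKM, led by Mcpt8, and Fcer1a was listed at 0. Of 5 hepatocyte or hepatoma markers Alb, Apoa1, Ttr and Serpina1a were listed at 0, and Afp averaged 0.203, 0.146 and 0.148 FPKM. The 5 dendritic cell markers summed to 0.281 to 0.42, 0.473 to 0.599 and 0.401 to 0.658 FPKM, while Zbtb46 among them went the other way at 0.0955, 0.0516 and 0.0767 FPKM. The 4 endothelial markers summed to 2.72 to 3.39, 3.53 to 4.52 and 3.45 to 5.38 FPKM, almost all from Kdr, while Pecam1 went the other way at 0.197, 0.126 and 0.163 FPKM. The 4 fibroblast markers summed to 105 to 130 FPKM in control TAMs, 140 to 208 FPKM in miR-144 TAMs and 179 to 228 FPKM in miR-451a TAMs, led by Col1a1. The 6 neutrophil markers summed to 78.9 to 95.8, 50.2 to 56.2 and 48.4 to 57 FPKM, almost all from Csf3r and Mmp8, with Ly6g at or near 0. Of 4 eosinophil markers, Prg2 was listed at 0 in all samples while Siglecf averaged 2.26, 0.357 and 0.355 FPKM and Ccr3 0.437, 0.559 and 0.48 FPKM, and the 4 summed to 2.43 to 2.98, 0.839 to 0.99 and 0.615 to 1.08 FPKM. The part of these other cell types in the results below was not tested, and in RNA from bulk samples fewer cells of a type and less RNA per cell cannot be told apart.

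Of the 68 genes, 23 had a mean of at least 1 FPKM in at least 1 group, 6 reached a mean of 0.1 to 1 FPKM, 21 stayed under 0.1 FPKM and 18 were listed at 0 in all 15 samples. Receptors and ligands differed in how many were detected. Of 34 receptors or binding proteins 17 reached 1 FPKM and 3 were listed at 0 throughout, whereas of 32 ligands 5 reached 1 FPKM and 15 were listed at 0, among them Il2, Il3, Il9, Il17a, Il21, Il22 and Il31. In control TAMs the highest member was Il7r at 89.6 ± 6.63 FPKM (SD, n = 5), followed by Il6st at 61.5 ± 10.5, Il11ra1 at 37 ± 2.8, Il3ra at 17.8 ± 1.39 and Il6ra at 13 ± 0.24 FPKM, and the sample values of neighbours in this order did not overlap. In miR-144 TAMs the order was Il6ra at 26.4 ± 1.35, Il7r at 21.8 ± 2.74, Il3ra at 17.8 ± 0.961, Il6st at 17 ± 1.27 and Il21r at 9.97 ± 0.588 FPKM, where Il3ra overlapped with both of its neighbours. In miR-451a TAMs it was Il6ra at 27.4 ± 0.936, Il6st at 20.6 ± 5.37, Il7r at 19.8 ± 0.806, Il3ra at 19.6 ± 0.895 and Il21r at 9.72 ± 0.756 FPKM, where the sample values of Il6st overlapped with those of Il6ra, Il7r and Il3ra. The receptors and binding proteins summed to 243, 120 and 125 FPKM in the group means, and the ligands to 8.9, 20.2 and 22.8 FPKM. The lower receptor sum came from Il7r, Il6st and Il11ra1, which together gave 188, 45.4 and 46.9 FPKM, while the other 31 receptors and binding proteins summed to 54.5, 74.1 and 77.7 FPKM. The plot of sample values shows how these genes are distributed over the groups.

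**Figure D1:**
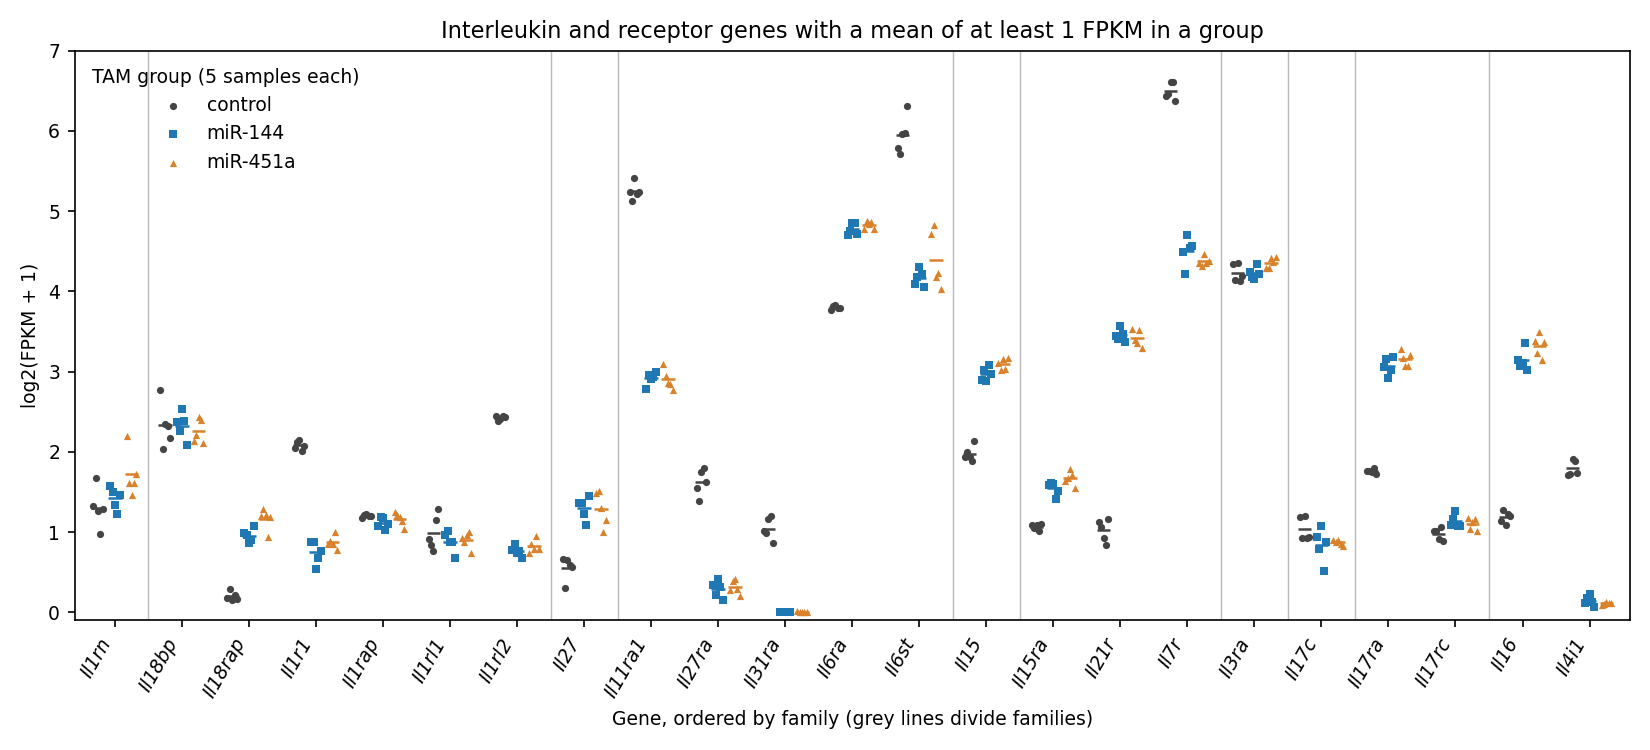
Level of each interleukin or receptor gene with a mean of at least 1 FPKM in a group, on the scale log2(FPKM + 1), with 1 point per sample and a line at the group mean, for 5 samples in each of 3 groups. Control points of Il7r, Il6st, Il11ra1, Il1rl2, Il1r1, Il27ra, Il31ra and Il4i1 lie above all miR-144 and miR-451a points, and those of Il21r, Il16, Il17ra, Il15, Il15ra, Il6ra, Il18rap and Il27 lie below them.

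The comparison with control used limma on log2(FPKM + 1) over 29540 genes, and a gene was called when its adjusted p was below 0.05. Of the 50 members above 0 in some sample, 9 were called higher and 11 lower in miR-144 TAMs, which is 18% and 22%, beside 23.1% and 9.65% of all genes tested. In miR-451a TAMs 10 were called higher and 10 lower, 20% each, beside 24.5% and 9.69% of all genes. The share of members called higher was thus near that of all genes, and the share called lower was above it in both comparisons. Among 17 members averaging 1 FPKM or more over all samples, 8 were higher and 5 lower in each comparison, 47.1% and 29.4%. These calls came from the fit on all 29540 genes. A separate fit took only genes averaging 1 FPKM or more. There 8 of the 17 members were higher and 5 lower for miR-144, and 10 and 5 for miR-451a. Of all genes in that separate fit, 47.1% were higher and 20.1% lower for miR-144, and 48.1% and 20.3% for miR-451a. Both comparisons share the control samples. In them 8 members were called higher and 10 lower in both, 1 higher and 1 lower with miR-144 alone, 2 higher with miR-451a alone, and 0 in opposite directions. The median log2 difference over the 50 members was 0.002 in miR-144 TAMs and 0.005 in miR-451a TAMs, beside 0.014 and 0.015 over all genes. Genes averaging 1 FPKM or more had a median difference of 0.13 and 0.14, a shift common to them that small differences have to be read against. The 8 and 10 members called in both kept their direction and their call in each of 852 values from 24 alternative settings, with a highest adjusted p of 0.00571. Centring each sample on its median on the log2 scale also moves genes at 0, and under it 8 members were higher and 36 lower in miR-144 TAMs and 8 and 34 in miR-451a TAMs, 18.2% and 19.0% of called members higher in place of 45% and 50%. Dividing the FPKM of each sample by its median instead, which leaves genes at 0 in place, gave 8 and 13 members and 9 and 11, while the share of higher calls among all called genes went from 70.6% and 71.6% to 54.1% and 54.2%.

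**Figure D2:**
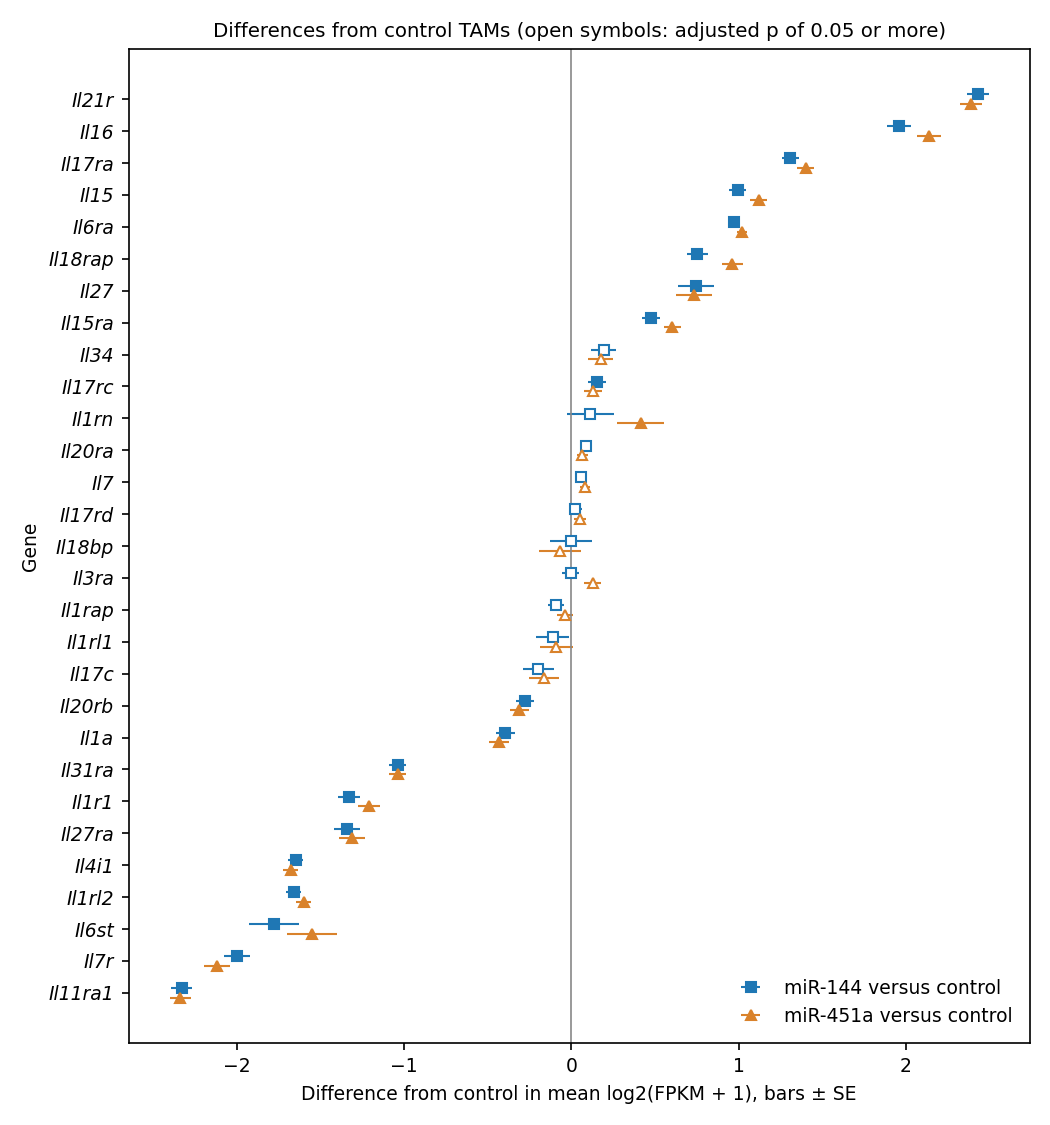
Difference from control TAMs in mean log2(FPKM + 1), with bars of 1 SE, for the 29 members with a mean of at least 0.1 FPKM in a group, ordered by the miR-144 difference. Filled symbols mark an adjusted p below 0.05 and open symbols the rest. Squares (miR-144) and triangles (miR-451a) of a gene lie close together, from Il21r at 2.43 and 2.39 to Il11ra1 at -2.33 and -2.34.

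Promoters from RefSeq (GRCm38.p6), running from 250 bases before to 50 after a start site, were found for 56 of the 68 members, including 9 of the 10 called lower and 5 of the 8 called higher in both comparisons. Both strands were searched for 3 short motifs of factors that act downstream of cytokine receptors, with any overlap between motifs allowed. The motif of STAT6 was TTC and GAA with 4 bases between, that of interferon response GAAA and GAAA with 2 bases between and that of NF-kB GGG and CC with 5 bases between. Of all 32851 promoters 6.95% held the STAT6 motif, 3.44% that of interferon response and 50.8% that of NF-kB. In the first window listed for each of the 9 members called lower, Il11ra1, Il20rb, Il4i1 and Il6st held the NF-kB motif. In the first windows of the 5 called higher, Il18rap held the STAT6 motif and Il16, Il21r and Il6ra that of NF-kB. Il1r1, called lower, and Il15ra, called higher, held the NF-kB motif in their second window alone. A match describes letters only. Shown are the 2 chains of the IL-11 receptor, which fell, and, for contrast, Il21r and Il18rap, which rose, chosen after their values were seen. Il11ra1 (chr4:41760193-41760492, plus strand), Il6st (chr13:112463820-112464119, plus strand), Il21r (chr7:125603179-125603478, plus strand) and Il18rap (chr1:40515112-40515411, plus strand) are written 5′ to 3′ along the gene, the RefSeq start of Il11ra1 lying within the longer GENCODE gene and being the first of 2 listed, with matches of any of the 3 motifs in capitals.
Il11ra1: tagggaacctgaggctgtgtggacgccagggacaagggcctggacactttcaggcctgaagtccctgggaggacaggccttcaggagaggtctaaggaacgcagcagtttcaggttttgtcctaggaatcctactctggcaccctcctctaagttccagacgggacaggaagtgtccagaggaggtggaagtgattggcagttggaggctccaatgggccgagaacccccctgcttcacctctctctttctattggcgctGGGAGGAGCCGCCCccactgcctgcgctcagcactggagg
Il6st: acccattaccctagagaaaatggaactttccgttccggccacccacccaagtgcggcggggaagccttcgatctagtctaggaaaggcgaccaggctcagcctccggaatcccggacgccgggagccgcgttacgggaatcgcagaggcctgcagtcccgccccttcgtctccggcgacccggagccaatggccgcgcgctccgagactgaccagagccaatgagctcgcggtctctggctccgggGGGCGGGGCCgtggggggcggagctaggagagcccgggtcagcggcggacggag
Il21r: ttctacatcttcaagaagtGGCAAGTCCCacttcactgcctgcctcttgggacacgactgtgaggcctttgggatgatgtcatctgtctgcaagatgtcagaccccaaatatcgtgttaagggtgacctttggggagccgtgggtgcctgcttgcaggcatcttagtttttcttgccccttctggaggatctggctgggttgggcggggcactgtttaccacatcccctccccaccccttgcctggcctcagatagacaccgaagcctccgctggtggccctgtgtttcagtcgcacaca
Il18rap: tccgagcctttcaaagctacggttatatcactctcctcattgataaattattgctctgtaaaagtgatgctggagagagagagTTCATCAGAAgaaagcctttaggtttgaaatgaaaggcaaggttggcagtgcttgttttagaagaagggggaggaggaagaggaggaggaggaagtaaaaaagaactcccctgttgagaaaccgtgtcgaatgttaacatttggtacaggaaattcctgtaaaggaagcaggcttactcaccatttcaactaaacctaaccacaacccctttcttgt

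Among receptors related to gp130 and the IL-12 receptor, 4 of 6 tested genes fell and 1 rose in both comparisons, beside 9.65% lower and 23.1% higher of all genes tested for miR-144 and 9.69% and 24.5% for miR-451a. Il6st, the gene of gp130 on chromosome 13 (chr13:112464070-112510086, GRCm38), was 54.1, 51.6, 61.4, 61.9 and 78.5 FPKM in control TAMs. Il6st measured 16.1, 17.1, 18.8, 17.6 and 15.6 FPKM in miR-144 TAMs and 25.3, 27.4, 17.1, 17.7 and 15.4 FPKM in miR-451a TAMs. All 10 samples of miRNA tumors lay below every control, by 3.61-fold in the mean of miR-144 TAMs (log2 difference -1.78 ± 0.15, adjusted p = 2.49e-07, SE as in all such values) and 2.99-fold in that of miR-451a TAMs (log2 difference -1.55 ± 0.15, adjusted p = 1.02e-06), and miR-451a replicates 1 and 2 stood above the other 3. Il6ra, the chain that binds IL-6 (chr3:89864059-89913196), went the other way and was 12.7, 13.1, 13.3, 12.9 and 12.8 FPKM in control TAMs. Il6ra measured 25.2, 26, 27.8, 28 and 25.3 FPKM in miR-144 TAMs and 26.3, 28.4, 27.7, 28.1 and 26.5 FPKM in miR-451a TAMs. It rose 2.04-fold (log2 difference 0.97 ± 0.03, adjusted p = 1.22e-11) and 2.11-fold (log2 difference 1.02 ± 0.03, adjusted p = 6.44e-12) with no overlap between groups. The ratio of Il6ra to Il6st was therefore 0.215 ± 0.0341 in control TAMs, 1.55 ± 0.0567 in miR-144 TAMs and 1.4 ± 0.334 in miR-451a TAMs (SD, n = 5, FPKM over FPKM), from below 1 in every control to above 1 in every other sample.

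Il11ra1, the ligand-binding chain for IL-11 (chr4:41699989-41769474), was 36.8, 34, 41.6, 36.1 and 36.6 FPKM in control TAMs. Il11ra1 measured 5.9, 6.77, 6.49, 6.66 and 6.98 FPKM in miR-144 TAMs and 7.56, 6.73, 6.28, 6.21 and 5.84 FPKM in miR-451a TAMs. It fell 5.65-fold (log2 difference -2.33 ± 0.06, adjusted p = 1.53e-12) and 5.68-fold (log2 difference -2.34 ± 0.06, adjusted p = 1.37e-12), the lowest difference among the members on the log2(FPKM + 1) scale, which understates changes of low genes. By ratio of mean FPKM the fall of Il4i1, Il27ra and Il31ra was steeper in both comparisons and that of Il1rl2 in miR-144 TAMs. By 50-base windows, 60% of its longest transcript is found again in the copies Gm13305 and Il11ra2, so reads could have been divided between them. Gm13305 averaged 1.21 FPKM in control TAMs and 0.208 and 0.240 FPKM in the others, and Il11ra2 was above 0 in 1 control sample only. Il27ra, which pairs with gp130 for IL-27 (chr8:84030294-84042589), was 1.94, 1.62, 2.37, 2.47 and 2.09 FPKM in control TAMs. Il27ra measured 0.265, 0.16, 0.33, 0.24 and 0.116 FPKM in miR-144 TAMs and 0.218, 0.311, 0.337, 0.219 and 0.153 FPKM in miR-451a TAMs. Every sample of miRNA tumors was below every control, 9.44-fold (log2 difference -1.34 ± 0.08, adjusted p = 4.36e-09) and 8.48-fold (log2 difference -1.31 ± 0.08, adjusted p = 5.39e-09) in the means. Il31ra, the chain that binds IL-31 and pairs with the oncostatin M receptor in place of gp130, lies next to Il6st on the opposite strand (chr13:112519898-112594360), and the 2 genes together span 130 kb. It was 1.03, 0.98, 1.23, 1.29 and 0.814 FPKM in control TAMs. Il31ra was listed at 0 in all 5 miR-144 samples and in 4 of 5 miR-451a samples, the other being at 0.0113 FPKM. With 3 fragments as a floor per library, 0.0588 FPKM at most, the control mean was at least 18.2-fold higher than either other group (log2 difference -1.04 ± 0.05, adjusted p = 4.37e-10 and log2 difference -1.04 ± 0.05, adjusted p = 4.26e-10). Il23r was listed at 0 in all samples. Il31ra and Il27ra are among 8 members that the study picked for a display of inflammation genes on these samples, so their direction is not independent evidence. The summed fibroblast markers, from cells that also carry gp130 and the IL-11 receptor, were higher in the samples in which Il6st and Il11ra1 were lower. The part of fibroblasts in the values of these 2 genes was not tested.

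**Figure D3:**
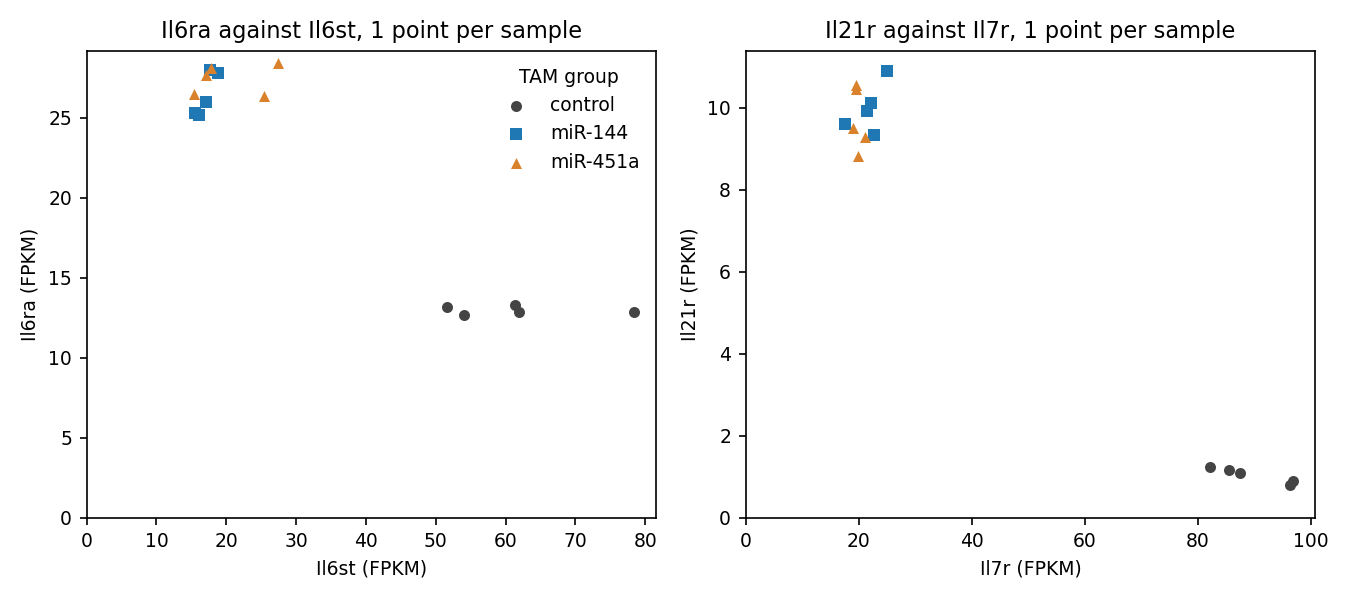
Left, Il6ra against Il6st, and right, Il21r against Il7r, in FPKM on linear axes from 0, with 1 point for each of 15 samples. The 5 control samples lie at high Il6st and Il7r with low Il6ra and Il21r, and the 10 other samples lie at low Il6st and Il7r with high Il6ra and Il21r, with no sample between.

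Of the ligands of that group, Il27, the p28 subunit that joins the product of Ebi3 to form IL-27 (chr7:126589010-126594941), was 0.583, 0.235, 0.568, 0.51 and 0.482 FPKM in control TAMs. Il27 measured 1.58, 1.57, 1.34, 1.13 and 1.73 FPKM in miR-144 TAMs and 1.8, 1.85, 1.47, 0.996 and 1.22 FPKM in miR-451a TAMs. It rose 3.1-fold (log2 difference 0.75 ± 0.11, adjusted p = 6.04e-05) and 3.08-fold (log2 difference 0.73 ± 0.11, adjusted p = 6.7e-05) while Il27ra fell, and 10.1% of its exon bases lie opposite Apobr, which averaged 22.8, 40.7 and 41.3 FPKM and also rose. Whether the libraries keep strand is not given in the sources used here, so reads of the 2 genes in that stretch cannot be told apart. Il6 stayed near 0, at 0 to 0.0868 FPKM in control and 0 to 0.0271 FPKM in miR-451a TAMs, and was listed at 0 in all miR-144 samples. All its values were below its floor of 0.185 FPKM, and its call as lower in miR-144 TAMs (adjusted p = 0.0326) was lost in 9 of the 23 alternatives that tested it, with adjusted p of 0.0537 to 0.0776. These were the fit on 2 groups and those without control replicate 1, 4 or 5 or without any 1 of the miR-144 replicates. Without control replicate 3 (adjusted p = 0.0199) and under median centring (adjusted p = 2.77e-07) it was also called in miR-451a TAMs. Il11 stayed under 0.1 FPKM and Il31 was listed at 0. Of 14 listed partners of gp130 and its JAK and STAT3 route, 8 were higher and 2 lower in miR-144 TAMs and 6 and 1 in miR-451a TAMs, with median log2 differences of 0.0984 and 0.0639. In the same fit 23.1% and 9.65% of all genes were higher and lower for miR-144, and 24.5% and 9.69% for miR-451a. In the separate fit on genes averaging 1 FPKM or more, the shares were 47.1% and 20.1%, and 48.1% and 20.3%. Both sets of shares stand beside the partner counts below too, since some listed partners average less than 1 FPKM. Ebi3 was at 7.42, 28 and 30.4 FPKM in control, miR-144 and miR-451a TAMs (log2 differences 1.78 ± 0.07 and 1.89 ± 0.07, adjusted p = 3.53e-11 and 1.7e-11). Jak1, a kinase bound to gp130, was at 42, 44.4 and 43.9 FPKM (log2 differences 0.08 ± 0.03 and 0.06 ± 0.03, adjusted p = 0.0281 and 0.0768). Adam10, a protease that can shed receptors, was at 31.9, 26.9 and 29.2 FPKM (log2 differences -0.25 ± 0.08 and -0.12 ± 0.08, adjusted p = 0.0242 and 0.279). Both passed the test in miR-144 TAMs alone, where the difference of Jak1 was below the shift common to expressed genes. Tyk2 was at 17.3, 21.4 and 21.9 FPKM (log2 differences 0.29 ± 0.04 and 0.33 ± 0.04, adjusted p = 6.07e-05 and 1.89e-05). Stat3 was at 15.1, 18 and 17.9 FPKM (log2 differences 0.24 ± 0.03 and 0.23 ± 0.03, adjusted p = 1.77e-05 and 2.85e-05). Chosen after their values were seen, Jak2, at 22.7, 10.1 and 10.6 FPKM, fell (log2 differences -1.10 ± 0.04 and -1.02 ± 0.04, adjusted p = 3.3e-11 and 6.37e-11). Lifr, another partner of gp130, at 1.9, 10.7 and 11.9 FPKM, rose (log2 differences 2.02 ± 0.06 and 2.15 ± 0.06, adjusted p = 3.72e-12 and 1.86e-12).

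Receptors that use the common gamma chain moved in both directions. Il7r, the chain for IL-7 that also serves TSLP (chr15:9505788-9530176), was 85.5, 87.4, 96.8, 96.3 and 82.1 FPKM in control TAMs. Il7r measured 21.4, 17.6, 25.1, 22.2 and 22.7 FPKM in miR-144 TAMs and 19.5, 18.9, 21.1, 19.5 and 19.8 FPKM in miR-451a TAMs. All 10 samples of miRNA tumors lay below all controls, 4.11-fold (log2 difference -2.0 ± 0.08, adjusted p = 4.13e-11) and 4.54-fold (log2 difference -2.12 ± 0.08, adjusted p = 2.06e-11) in the means. Il21r, the chain for IL-21 on chromosome 7 (chr7:125603429-125633570), was 1.18, 1.08, 0.904, 0.792 and 1.25 FPKM in control TAMs. Il21r measured 9.91, 9.6, 10.9, 10.1 and 9.34 FPKM in miR-144 TAMs and 10.6, 9.51, 9.27, 10.4 and 8.81 FPKM in miR-451a TAMs. It had the highest difference of all members on the log2(FPKM + 1) scale and rose 9.57-fold (log2 difference 2.43 ± 0.07, adjusted p = 1.55e-12) and 9.34-fold (log2 difference 2.39 ± 0.07, adjusted p = 1.68e-12), with a wide gap between control and other samples. Il21r is also carried by B cells, whose markers summed higher in the same samples. The ratio of Il21r to Il7r went from 0.0118 ± 0.00294 in control TAMs to 0.462 ± 0.0516 and 0.493 ± 0.0484 in miR-144 and miR-451a TAMs (SD, n = 5). The plot of the receptor pairs shows these values by sample. Il2ra, Il2rb and Il9r stayed under 0.1 FPKM in every group mean.

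Il15, a cytokine that macrophages present to lymphocytes on its own receptor chain (chr8:82331632-82403222), was 2.83, 2.98, 2.82, 2.69 and 3.38 FPKM in control TAMs. Il15 measured 6.42, 7.15, 6.41, 7.46 and 6.82 FPKM in miR-144 TAMs and 7.6, 7.14, 7.9, 7.16 and 7.98 FPKM in miR-451a TAMs. It rose 2.33-fold (log2 difference 0.99 ± 0.05, adjusted p = 1.44e-09) and 2.57-fold (log2 difference 1.12 ± 0.05, adjusted p = 3.68e-10). Il15ra, that presenting chain (chr2:11705290-11734317), was 1.14, 1.08, 1.13, 1.02 and 1.14 FPKM in control TAMs. Il15ra measured 2.02, 2.06, 2.04, 1.66 and 1.86 FPKM in miR-144 TAMs and 2.11, 2.19, 2.46, 2.28 and 1.94 FPKM in miR-451a TAMs. Both rose without overlap between control and other samples, and dendritic cells, whose summed markers are given above, also express them. Il15ra rose 1.75-fold (log2 difference 0.48 ± 0.05, adjusted p = 3.46e-06) and 2-fold (log2 difference 0.60 ± 0.05, adjusted p = 2.65e-07). Il7 was low and did not pass the test, at 0.0958 to 0.205 FPKM in control TAMs, 0.157 to 0.226 FPKM in miR-144 TAMs and 0.12 to 0.27 FPKM in miR-451a TAMs (log2 difference 0.06 ± 0.03, adjusted p = 0.21 for miR-144, log2 difference 0.08 ± 0.03, adjusted p = 0.0659 for miR-451a). It was called higher for miR-451a without control replicate 3 (adjusted p = 0.0226), without miR-451a replicate 5 (adjusted p = 0.00561) or after rescaling to TPM (adjusted p = 0.0429), and lower for miR-144 under median centring (adjusted p = 0.0463). Il2, Il9 and Il21 were listed at 0, the last being the ligand of Il21r.

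Il3ra, the chain for IL-3, which pairs with the common beta chain (chr14:14346275-14356011), was 19.3, 16.7, 19.4, 16.6 and 17.2 FPKM in control TAMs. Il3ra measured 17.9, 17.1, 16.9, 19.3 and 17.6 FPKM in miR-144 TAMs and 18.6, 18.6, 20.3, 19.7 and 20.5 FPKM in miR-451a TAMs. Groups overlapped and no call was made (log2 difference -0.0041 ± 0.05, adjusted p = 1 for miR-144, log2 difference 0.13 ± 0.05, adjusted p = 0.0679 for miR-451a), although the miR-451a difference passed the test as higher without control replicate 1 or 3 (adjusted p = 0.031 and 0.0274), among genes averaging 1 FPKM or more (adjusted p = 0.0381) and after rescaling to TPM (adjusted p = 0.00485). Under median centring the miR-144 difference passed it as lower (log2 difference -0.14, adjusted p = 0.0372). Il3, its ligand, was listed at 0, and Il5, Il13 and Il5ra stayed under 0.1 FPKM. Of 9 listed partners of the gamma and beta chains, 3 were higher and 5 lower in miR-144 TAMs and 3 and 4 in miR-451a TAMs, with median log2 differences of -0.219 and -0.153. Csf2rb2, a beta chain that mice use for IL-3, was at 208, 52.2 and 49.3 FPKM (log2 differences -1.98 ± 0.07 and -2.06 ± 0.07, adjusted p = 2.86e-11 and 1.78e-11). Csf2rb, its near-identical copy, named here after its value was seen, was at 94.2, 23 and 22.8 FPKM (log2 differences -2.0 ± 0.10 and -1.99 ± 0.10, adjusted p = 1.1e-09 and 1.04e-09). Both fell while Il3ra did not pass the test, and reads of the copies could have been divided between them. Csf2ra, the chain for GM-CSF, was at 92.8, 71.9 and 68.6 FPKM (log2 differences -0.38 ± 0.13 and -0.43 ± 0.13, adjusted p = 0.0415 and 0.0188). Il2rg, the common gamma chain itself, was at 41.4, 49.9 and 51.6 FPKM (log2 differences 0.26 ± 0.05 and 0.31 ± 0.05, adjusted p = 0.00135 and 0.000325).

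Receptors of the IL-1 family include 6 neighbours on the plus strand of chromosome 1 (chr1:40074079-40551705, 478 kb), in the order Il1r2, Il1r1, Il1rl2, Il1rl1, Il18r1 and Il18rap, and they did not move together. Il1r1, the signalling receptor for IL-1 (chr1:40225080-40317257), was 3.14, 3.35, 3.42, 3.04 and 3.22 FPKM in control TAMs. Il1r1 measured 0.833, 0.837, 0.451, 0.605 and 0.705 FPKM in miR-144 TAMs and 0.806, 0.859, 0.805, 1.01 and 0.717 FPKM in miR-451a TAMs. It was 4.72-fold (log2 difference -1.33 ± 0.07, adjusted p = 8.68e-10) and 3.86-fold (log2 difference -1.21 ± 0.07, adjusted p = 2.46e-09) lower, with no overlap. Il1rl2, the receptor for IL-36 cytokines (chr1:40324610-40367562), was 4.44, 4.24, 4.31, 4.44 and 4.41 FPKM in control TAMs. Il1rl2 measured 0.71, 0.813, 0.667, 0.696 and 0.601 FPKM in miR-144 TAMs and 0.675, 0.811, 0.736, 0.927 and 0.729 FPKM in miR-451a TAMs. It fell 6.27-fold (log2 difference -1.66 ± 0.05, adjusted p = 1.61e-12) and 5.63-fold (log2 difference -1.60 ± 0.05, adjusted p = 2.26e-12), and the narrow spread of the controls left a wide gap to all other samples. Il1rl1, the receptor for IL-33, was 0.89, 0.797, 0.698, 1.23 and 1.43 FPKM in control TAMs. Il1rl1 measured 0.948, 1.01, 0.838, 0.829 and 0.601 FPKM in miR-144 TAMs and 0.894, 0.843, 0.958, 0.994 and 0.674 FPKM in miR-451a TAMs. Its groups overlapped and it was not called (log2 difference -0.11 ± 0.10, adjusted p = 0.447 and log2 difference -0.09 ± 0.10, adjusted p = 0.537) except as lower under median centring (adjusted p = 0.0298 and 0.0365).

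At the far end of the cluster, Il18rap, the signalling partner of the IL-18 receptor (chr1:40515362-40551705), was 0.135, 0.222, 0.117, 0.164 and 0.125 FPKM in control TAMs. Il18rap measured 0.985, 0.946, 0.82, 0.862 and 1.11 FPKM in miR-144 TAMs and 1.29, 1.45, 1.31, 0.915 and 1.28 FPKM in miR-451a TAMs. It rose 6.19-fold (log2 difference 0.75 ± 0.06, adjusted p = 2.63e-07) and 8.18-fold (log2 difference 0.96 ± 0.06, adjusted p = 1.79e-08), and every other sample was above every control. Il18r1, the chain that binds IL-18, was listed at 0 in all controls and was 0 to 0.0933 and 0.0194 to 0.0957 FPKM in miR-144 and miR-451a TAMs, around its floor of 0.082 FPKM, where no fold is given. It was called higher in miR-451a TAMs (adjusted p = 0.0149) and not in miR-144 TAMs (adjusted p = 0.0697), where it was called without miR-144 replicate 3 or miR-451a replicate 4 (adjusted p = 0.0226 and 0.0452) and with a pseudocount of 0.1 FPKM (adjusted p = 0.0395). Under median centring it was instead called lower in miR-144 and miR-451a TAMs (adjusted p = 0.00908 and 0.0174). Il1r2, a decoy that binds IL-1 without signalling, was 0 to 0.0949 FPKM in control TAMs, 0 to 0.123 FPKM in miR-144 TAMs and 0 to 0.101 FPKM in miR-451a TAMs. It was not called (log2 difference 0.03 ± 0.04, adjusted p = 0.669 and log2 difference 0.02 ± 0.04, adjusted p = 0.785) except as lower under median centring (adjusted p = 0.0216 and 0.00847). Il18rap, Il18r1 and Il1r2 also belong to the study's display list.

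**Figure D4:**
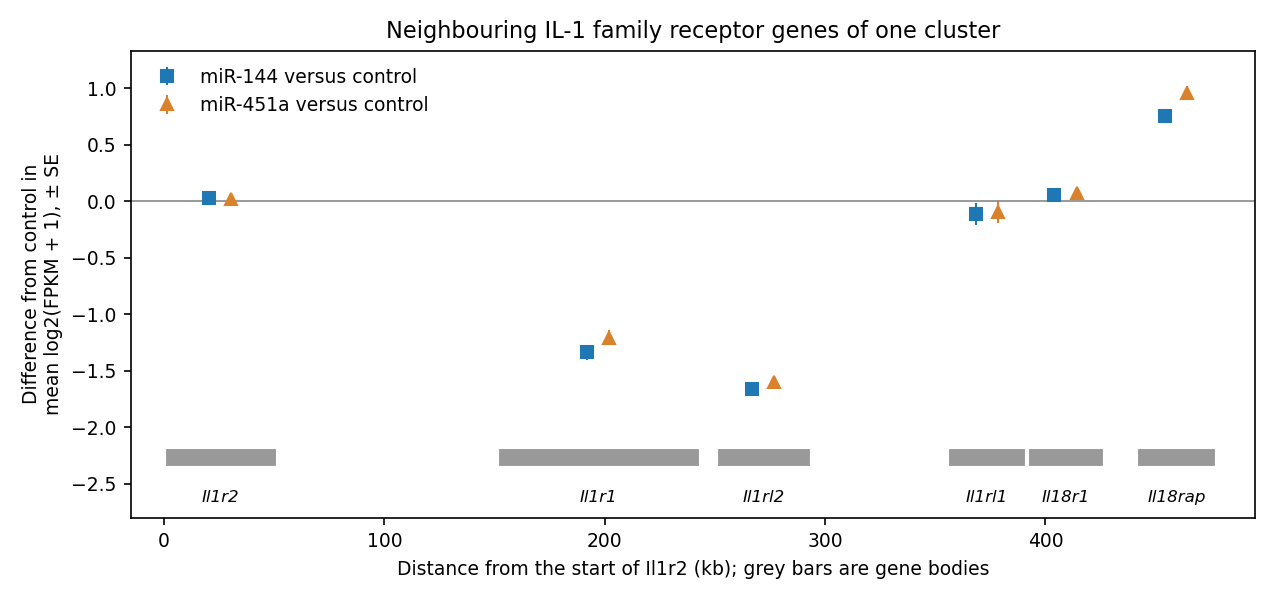
Difference from control in mean log2(FPKM + 1), with bars of 1 SE (often smaller than the symbol), for 6 neighbouring IL-1 family receptor genes, against the distance in kb from the start of Il1r2. Grey bars are the gene bodies. Il1r1 and Il1rl2 lie between -1.66 and -1.21, Il1r2, Il1rl1 and Il18r1 between -0.11 and 0.07, and Il18rap at 0.75 and 0.96.

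Il1rap, the accessory chain shared by the receptors for IL-1, IL-33 and IL-36, lies on another chromosome and was 1.27, 1.31, 1.34, 1.29 and 1.31 FPKM in control TAMs. Il1rap measured 1.12, 1.27, 1.26, 1.04 and 1.14 FPKM in miR-144 TAMs and 1.38, 1.32, 1.28, 1.2 and 1.05 FPKM in miR-451a TAMs. It was not called (log2 difference -0.09 ± 0.05, adjusted p = 0.179 and log2 difference -0.04 ± 0.05, adjusted p = 0.598), but was called lower once the samples were centred or scaled to a common median or to common quantiles, with adjusted p of 0.000842 to 0.0361. The ratio of Il1r1 to Il1rap was 2.48 ± 0.0814 in control TAMs and 0.592 ± 0.144 and 0.676 ± 0.0981 in miR-144 and miR-451a TAMs (SD, n = 5). Il18bp, a secreted protein that neutralizes IL-18, was 5.84, 3.09, 4.11, 3.99 and 3.51 FPKM in control TAMs. Il18bp measured 4.16, 3.8, 4.81, 4.22 and 3.26 FPKM in miR-144 TAMs and 3.41, 3.64, 4.39, 4.28 and 3.34 FPKM in miR-451a TAMs, with overlap of all groups and no call (log2 difference -0.0017 ± 0.12, adjusted p = 1 and log2 difference -0.07 ± 0.12, adjusted p = 0.731).

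Of the 8 IL-1 family ligands examined, 2 reached a mean of 0.1 FPKM. Il1rn, the secreted antagonist of the IL-1 receptor, was 1.5, 2.2, 1.41, 0.961 and 1.45 FPKM in control TAMs. Il1rn measured 1.99, 1.83, 1.52, 1.34 and 1.75 FPKM in miR-144 TAMs and 3.61, 2.06, 1.75, 2.05 and 2.3 FPKM in miR-451a TAMs. Groups overlapped, and it was called higher in miR-451a TAMs (log2 difference 0.41 ± 0.14, adjusted p = 0.0345) but not in miR-144 TAMs (log2 difference 0.11 ± 0.14, adjusted p = 0.616). That call was lost in 10 of 24 alternatives, among them leaving out miR-451a replicate 1, the highest sample (log2 difference 0.29, adjusted p = 0.0773), miR-451a replicate 5 (adjusted p = 0.06) or control replicate 1, 3, 4 or 5 (adjusted p = 0.0587, 0.0669, 0.0939 and 0.0625). Il1a, which encodes IL-1 alpha, was 0.624 to 0.724 FPKM in control TAMs, 0.212 to 0.371 FPKM in miR-144 TAMs and 0.0531 to 0.356 FPKM in miR-451a TAMs and fell in both comparisons (log2 difference -0.40 ± 0.06, adjusted p = 8.62e-05 and log2 difference -0.43 ± 0.06, adjusted p = 3.25e-05), with no overlap with control. Il33 and Il1f9 stayed under 0.1 FPKM, and Il1f5, Il1f6, Il1f8 and Il1f10 were listed at 0, which leaves the listed ligands of Il1rl2 at or near 0. Of 12 listed partners that carry the IL-1 receptor signal, 8 were higher and 1 lower in each comparison, with a median log2 difference of 0.298 in both. Myd88, the adaptor, was at 20.8, 39.8 and 39.7 FPKM in control, miR-144 and miR-451a TAMs (log2 differences 0.90 ± 0.07 and 0.91 ± 0.07, adjusted p = 5.06e-08 and 4.77e-08). Tab2, which links TRAF6 to the kinase TAK1, was at 21, 37.1 and 32.1 FPKM (log2 differences 0.79 ± 0.11 and 0.56 ± 0.11, adjusted p = 4.33e-05 and 0.000817). Tollip, an inhibitory adaptor, was at 23.7, 16.5 and 16.5 FPKM (log2 differences -0.49 ± 0.03 and -0.50 ± 0.03, adjusted p = 2.01e-09 and 1.65e-09).

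Il17ra, the chain common to receptors of the IL-17 family (chr6:120463247-120487559), was 2.4, 2.38, 2.38, 2.47 and 2.31 FPKM in control TAMs. Il17ra measured 7.36, 7.92, 6.6, 7.12 and 8.12 FPKM in miR-144 TAMs and 8.71, 8, 7.37, 7.43 and 8.23 FPKM in miR-451a TAMs. It rose 3.11-fold (log2 difference 1.31 ± 0.05, adjusted p = 6.14e-11) and 3.33-fold (log2 difference 1.40 ± 0.05, adjusted p = 2.79e-11), with every sample above every control. Il17rc, its partner for IL-17A and IL-17F, was 1.02, 1.03, 0.882, 1.08 and 0.852 FPKM in control TAMs. Il17rc measured 1.12, 1.23, 1.41, 1.11 and 1.12 FPKM in miR-144 TAMs and 1.27, 1.06, 1.19, 1.24 and 1.02 FPKM in miR-451a TAMs. The call as higher in miR-144 TAMs (log2 difference 0.15 ± 0.05, adjusted p = 0.0449) was close to the shift common to expressed genes and was lost in 12 of 24 alternatives, while miR-451a TAMs did not pass (log2 difference 0.13 ± 0.05, adjusted p = 0.0959) except among genes averaging 1 FPKM or more (adjusted p = 0.0474) and after rescaling to TPM (adjusted p = 0.024). The 12 included leaving out control replicate 1, 2, 3 or 5 (adjusted p = 0.0537, 0.0514, 0.0987 and 0.103), miR-144 replicate 2 or 3 (adjusted p = 0.0807 and 0.106) or miR-451a replicate 3 (adjusted p = 0.0513), and scaling to a common median (log2 difference 0.07, adjusted p = 0.387). The miR-144 call was also lost with the sample number as a replicate block (adjusted p = 0.0641). The ratio of Il17ra to Il17rc was 2.47 ± 0.215, 6.28 ± 0.951 and 6.93 ± 0.885 (SD, n = 5). Il17rd, an atypical member, was 0.0717 to 0.105 FPKM in control TAMs, 0.0205 to 0.185 FPKM in miR-144 TAMs and 0.0586 to 0.181 FPKM in miR-451a TAMs. It was not called except as lower under median centring (adjusted p = 0.0207 and 0.0473). Il17rb and Il17re stayed under 0.1 FPKM.

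Among IL-17 cytokines, Il17c, a ligand made mostly by epithelium, was 1.28, 0.905, 1.3, 0.899 and 0.914 FPKM in control TAMs. Il17c measured 0.911, 0.725, 1.1, 0.433 and 0.831 FPKM in miR-144 TAMs and 0.875, 0.831, 0.864, 0.812 and 0.772 FPKM in miR-451a TAMs. Its miR-451a values all lay below every control, while its miR-144 values overlapped with control. It was not called (log2 difference -0.20 ± 0.09, adjusted p = 0.126 and log2 difference -0.16 ± 0.09, adjusted p = 0.213), but it passed the test as lower for miR-144 without miR-144 replicate 3 (log2 difference -0.26, adjusted p = 0.0404) and under median centring, quantile normalization and median scaling (adjusted p = 0.00544, 0.0149 and 0.0361), and for miR-451a under median centring and quantile normalization (adjusted p = 0.00861 and 0.0222). Il17d was 0 to 0.033 FPKM in control TAMs, 0 to 0.0697 FPKM in miR-144 TAMs and 0 to 0.252 FPKM in miR-451a TAMs, with a floor of 0.153 FPKM and no call, and it too is on the study's list. Il17a, Il17b and Il25 were listed at 0. All 5 listed partners in IL-17 receptor signalling passed the test in both comparisons, 3 higher and 2 lower, where most genes averaging 1 FPKM or more passed it as well, with median log2 differences of 0.231 and 0.241. Nfkbiz, an inducible partner of NF-kB, was at 1.64, 10.6 and 10.9 FPKM (log2 differences 2.13 ± 0.06 and 2.17 ± 0.06, adjusted p = 3.7e-12 and 2.78e-12). Zc3h12a, an RNase that degrades cytokine mRNAs, was at 15.1, 11.7 and 11.6 FPKM (log2 differences -0.34 ± 0.05 and -0.35 ± 0.05, adjusted p = 3.38e-05 and 2.99e-05). Traf2, an adaptor, was at 4.36, 5.28 and 5.33 FPKM (log2 differences 0.23 ± 0.04 and 0.24 ± 0.04, adjusted p = 0.000122 and 7.5e-05). In the IL-20 group, Il20rb, a chain of the receptors for IL-19, IL-20 and IL-24, was 0.596 to 0.716 FPKM in control TAMs, 0.243 to 0.57 FPKM in miR-144 TAMs and 0.245 to 0.425 FPKM in miR-451a TAMs and fell in both comparisons (log2 difference -0.28 ± 0.06, adjusted p = 0.00123 and log2 difference -0.31 ± 0.06, adjusted p = 0.000426). Il20ra, its partner, was 0.0339 to 0.087 FPKM in control TAMs, 0.0564 to 0.174 FPKM in miR-144 TAMs and 0.0384 to 0.16 FPKM in miR-451a TAMs and was not called (log2 difference 0.08 ± 0.03, adjusted p = 0.0818 and log2 difference 0.07 ± 0.03, adjusted p = 0.185), but it was called for miR-144 without miR-144 replicate 5 (adjusted p = 0.0261) and in the fit on 2 groups (adjusted p = 0.0374). Il19 and Il22ra1 stayed under 0.1 FPKM, as did Il17f, Il1rapl1 and Il1bos, an antisense gene, and Il20, Il22, Il24, Il22ra2 and Il1rapl2 were listed at 0.

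Il16, made as a precursor whose released part binds CD4 (chr7:83642825-83745726), was 1.2, 1.42, 1.12, 1.33 and 1.3 FPKM in control TAMs. Il16 measured 7.87, 7.42, 7.62, 9.28 and 7.15 FPKM in miR-144 TAMs and 9.45, 8.37, 10.2, 7.88 and 9.31 FPKM in miR-451a TAMs. It rose 6.17-fold (log2 difference 1.96 ± 0.07, adjusted p = 2.87e-11) and 7.1-fold (log2 difference 2.14 ± 0.07, adjusted p = 1.04e-11), and 15.3% of its exon bases lie opposite Stard5, which averaged 8.06, 8.59 and 8.38 FPKM. Il16 is also expressed by lymphocytes. The summed T cell markers, mostly Cd4, which macrophages can also express, were higher in the same samples as Il16. So were the summed B cell markers, mostly Cd79b, while Cd3e stood at 0 in every sample. The part of lymphocytes in the rise of Il16 was not tested. Il4i1, an enzyme that macrophages secrete to oxidize aromatic amino acids (chr7:44816387-44840809), was 2.28, 2.31, 2.75, 2.71 and 2.33 FPKM in control TAMs. Il4i1 measured 0.0864, 0.129, 0.168, 0.0896 and 0.0506 FPKM in miR-144 TAMs and 0.0641, 0.0798, 0.0987, 0.085 and 0.0868 FPKM in miR-451a TAMs. It fell 23.7-fold (log2 difference -1.65 ± 0.05, adjusted p = 2.08e-12) and 29.9-fold (log2 difference -1.68 ± 0.05, adjusted p = 1.65e-12), the steepest ratio among members with a value above 0 in all samples, and the values of both miRNA groups lay around its floor of 0.0901 FPKM. Of its exon bases 83.9% lie opposite Tbc1d17, which averaged 4.81, 5.15 and 5.28 FPKM, and 2.38% are shared with Nup62 on the same strand, which averaged 23.8 ± 12.7, 8.47 ± 6.22 and 10.7 ± 5.15 FPKM (SD, n = 5). Il16 and Il4i1 are on the study's list as well. Il34, an alternative ligand of CSF1R, was 0.56 to 0.908 FPKM in control TAMs, 0.749 to 1.16 FPKM in miR-144 TAMs and 0.855 to 1.18 FPKM in miR-451a TAMs and was not called (log2 difference 0.19 ± 0.07, adjusted p = 0.0628 and log2 difference 0.17 ± 0.07, adjusted p = 0.0901). It passed the test for miR-144 without control replicate 3, miR-144 replicate 5 or miR-451a replicate 1 (adjusted p = 0.0304, 0.026 and 0.0452), with no mean-variance trend (adjusted p = 0.0484) and after rescaling to TPM (adjusted p = 0.0305), and for miR-451a without control replicate 3 (adjusted p = 0.0433) and after that rescaling (adjusted p = 0.0375). With the sample number as a replicate block it also passed for miR-144 (adjusted p = 0.0424). Of its 4 listed partners, 2 were higher and 1 lower in each comparison, with median log2 differences of 0.159 and 0.198. Csf1r, its receptor, was at 401, 691 and 693 FPKM (log2 differences 0.78 ± 0.04 and 0.79 ± 0.04, adjusted p = 4.22e-10 and 3.75e-10). Csf1, the other ligand, was at 12.5, 15.7 and 16.7 FPKM (log2 differences 0.31 ± 0.10 and 0.38 ± 0.10, adjusted p = 0.0363 and 0.0113). Sdc1, a proteoglycan that binds IL-34, was at 77.3, 13 and 11.9 FPKM (log2 differences -2.48 ± 0.07 and -2.60 ± 0.07, adjusted p = 4.31e-12 and 2.62e-12).

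miR-451a and miR-144 TAMs were compared directly to ask whether the effects of the 2 miRNAs differed. No member was called (0 of 50, beside 0% of all 29540 genes by limma), and at an unadjusted p below 0.05 there were 5 members and 1459 genes. Without the mean-variance trend limma called 1 gene, which was no member. The 5 members were Il18rap (log2 difference 0.21 ± 0.06, adjusted p = 0.831), Il3ra (log2 difference 0.13 ± 0.05, adjusted p = 0.909), Il16 (log2 difference 0.18 ± 0.07, adjusted p = 0.909), Il15 (log2 difference 0.12 ± 0.05, adjusted p = 0.909) and Il15ra (log2 difference 0.13 ± 0.05, adjusted p = 0.909), all higher in miR-451a TAMs, with overlap between groups. Over the 29 members with a mean of at least 0.1 FPKM in a group, differences ranged from -0.13 to 0.30 on the log2 scale with SE of 0.03 to 0.15, and no pair of groups was free of overlap. A p that misses the threshold does not show that the 2 miRNAs act alike.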

How the data were processed

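TAMs in 15 samples, 5 in each group, were assigned to groups and numbered from the sample labels. Per the labels and the study's methods, RNA was extracted with Trizol and sequenced as standard Illumina libraries, and the submitters' processing notes name FastQC 0.11.2, STAR and StringTie. The authors deposited FPKM per gene and sample. Other tool versions, the genome build, the annotation and strand are not given in the sources used here.

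Members, gene lists and tests were chosen with earlier results of these data known. All 68 gene identifiers matched GENCODE M21, whose coordinates (GRCm38, 1-based) are printed without a claim that the authors used that build. Depth was estimated from steps between low FPKM values. Since 35.3% to 47.4% of low values lay within 0.05 of a step, read counts could not be restored, and limma was used in place of a count model. No 2 samples of a group were duplicates, with a lowest mean chi-square per gene of 3.64. Groups were compared with limma 3.58.1 (R 4.3.3) on log2(FPKM + 1), with all samples in 1 fit, a mean-variance trend and two-sided moderated tests, adjusted by Benjamini-Hochberg over the 29540 genes above 0 in at least 1 sample. The step was tested on simulated data. The result for 1 further promoter motif is not reported here, a choice that did not depend on its outcome. Values of every sample are given for members with a group mean of at least 1 FPKM, ranges for those of at least 0.1 FPKM and for the members of the study's display list, and partners are named for the 3 of highest mean among those called in each list. Alternatives were a pseudocount of 0.1 FPKM, a mean of at least 1 FPKM, 4 scalings, no trend, a replicate block, 2 groups only and each sample left out. Python 3.11.15, pandas 2.3.3, numpy 2.4.6 and matplotlib 3.10.9 were used.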

Additional observations from a re-analysis of the deposited data

Results flagged for a closer look

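A sample stood apart from the other 4 of its group, by a gap above Dixon's 95% critical value of 0.71 of the group's range, in 4 of 96 sets of 5 values, where chance gives about 4.8. In control TAMs, Il27 was lowest in replicate 2 at 0.235 FPKM, beside 0.482 FPKM in the nearest and 0.583 FPKM in the highest sample (gap 0.711 of the range). Il1r2 in control replicate 3 was 0.0949 FPKM, beside 0.0166 FPKM in the nearest, and was the only control value above the floor of its own library. In miR-451a TAMs, replicate 1 held the highest value of Il34, 1.18 FPKM beside 0.92 FPKM in the nearest, and the only value of Il31ra above 0, 0.0113 FPKM, which is under its floor of 0.0588 FPKM.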

How the results depend on the processing

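Counts of members and partners called stayed within 1.5 times the reported ones except that lower members numbered 5 and 5 when the test kept only genes averaging 1 FPKM or more, since fewer members (17) enter, and 36 and 34 under median centring, which subtracts the shift of expressed genes also from genes at 0. Under that centring the log2 differences of Il17rd (-0.111 and -0.0924), Il1r2 (-0.108 and -0.127) and Il18r1 (-0.0791 and -0.0703), and that of Il7 for miR-144 (-0.0763), turned from above to below 0 and were called lower, and others changed sign without a call. Scaling of FPKM to a common median was chosen after seeing the data. Leaving out 1 sample at a time gave 8 to 11 members higher and 10 to 11 lower for miR-144, 9 to 12 and 10 to 11 for miR-451a, 30 to 33 and 29 to 32 partners called, and 0 to 0 of each between the miRNAs. Of 99 comparisons of a named member, 56 kept sign and call in every setting run, 19 changed sign under some setting without a change of call, and 24 changed their call. Same-numbered samples deviated with correlations of -0.15 to 0.26, and a sample correlated best with its own number in 12 of 30 cases, each with 5 candidates. These values do not settle whether the numbers pair samples. The labels do not say so, and the main fit did not take the numbers as pairs. With the number as a replicate block, 9 members were higher and 11 lower for miR-144, 10 and 10 for miR-451a and 0 between the miRNAs, and 33, 32 and 0 partners were called. In that fit Il17rc was no longer called for miR-144 (adjusted p = 0.0641) and Il34 was (adjusted p = 0.0424), and no other named member changed its call. Depth limits values below the floor of 3 fragments, which the members under 0.1 FPKM seldom exceeded.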
